A study of Xenopus laevis and Petromyzon marinus with 21 samples.

Results

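Transcripts of the endothelin ligands, their receptors and their converting enzymes were followed through neural crest induction in animal caps of the frog Xenopus laevis. Animal caps are explants of the pluripotent ectoderm of the blastula. Members were all genes of the frog table whose name, less the ending L or S, is edn1, edn2, edn3, ednra, ednrb, ednrb2, ece1 or ece2, which gave 16 gene copies of the 49282 genes listed. X. laevis is an allotetraploid, and the ending L or S says whether a copy lies on the long or the short member of a chromosome pair. Each copy is treated here as a gene. All embryos were wild type. Induced caps came from embryos that were given mRNA of wnt8a, a Wnt ligand, together with mRNA of chordin, an inhibitor of BMP, when they had 2 cells, and control caps came from untreated embryos. The labels call induced caps animal pole stem cells at stage 9 and neural crest cells at stages 13 and 17. They call control caps animal pole stem cells at stage 9 and epidermal cells at stages 13 and 17. Each of the 6 groups held 3 libraries, 18 in all, whose columns carry the letters a, b and c. Since wnt8a and chordin were always injected together, and no group had an unrelated mRNA, what each factor does and what the injection does cannot be told apart.

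Endothelins are short secreted peptides that are cut from longer precursors, first by furin-type proteases and then by endothelin-converting enzymes such as ECE1. They act through G protein-coupled receptors, of which the A type (ednra) prefers edn1 and edn2, while the B type ednrb binds all the ligands. The receptor ednrb2 is counted here among the B types. In vertebrate embryos crest cells of the head carry ednra and receive edn1 from the pharyngeal arches, a signal that sets the identity of the lower jaw. The edn3 and ednrb pair is known for its role in pigment cells and in the neurons of the gut, which also come from the crest. In Xenopus, edn1 and ednra have also been tied to the early specification of the crest.

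The libraries held 15596247 to 23292078 gene counts. Levels are given as CPM (counts scaled by library size and TMM factor), on which a single read was worth 0.0363 to 0.0788 CPM depending on the library. Of the 16 copies, 10 passed the filter on low counts and were tested, and 6 did not (edn1.S, edn2.L, edn2.S, ednrb.L, ednrb2.L and ednrb2.S). Differences were tested with edgeR's quasi-likelihood test over all 24499 genes that passed, with Benjamini-Hochberg adjusted p-values and a threshold of 0.05. Markers of the labelled tissues were as follows. Of 28 neural crest copies tested, 24 were higher and 2 lower in induced caps at stage 13, and 24 were higher and 0 lower at stage 17. Of 17 epidermal copies, 15 were lower and 0 higher in induced caps at stage 13, and 13 were lower and 1 higher at stage 17. Lists of other ectoderm also held called copies. Over all genes tested, 18.9% were higher and 21.4% lower in induced caps at stage 13, and 22.2% and 22.8% at stage 17. Of 16 neural plate copies, 10 were higher in induced caps at stage 13, and 10 were higher and 3 lower at stage 17. Of 8 placode copies, 3 were higher and 1 lower at stage 13, and 1 was higher and 1 lower at stage 17. Lower copies in induced caps were 13 of 16 for multiciliated cells, 11 of 14 for ionocytes and 5 of 8 for goblet and secretory cells at stage 13, and 15, 14 and 2 at stage 17, with 1 goblet copy higher at stage 13. Of 9 mesoderm and muscle copies, 5 were higher at stage 13 and 4 at stage 17. The summed level of 19 mesoderm and muscle copies was 8.70 to 114 CPM in induced caps of stage 13, against 2.23 to 5.76 CPM in controls, and 8.21 to 49.8 CPM in induced caps of stage 17, against 2.09 to 5.79 CPM in controls. It was high in 1 library at each stage, induced b at stage 13 and induced c at stage 17. The part that such cells have in the results below was not tested.

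The S copy of endothelin receptor A, ednra.S, rose in both kinds of cap after the blastula and rose earlier and higher in induced caps. At stage 9 the induced libraries a, b and c held 0.929, 0.490 and 0.0487 CPM, against 0.943, 0.510 and 0.0442 CPM in the controls of the same letters. Libraries of 1 letter thus lay close together, and the groups overlapped. At stage 13 the values were 5.30, 11.3 and 9.39 CPM in induced caps, against 0.572, 0.394 and 1.22 CPM in controls. By stage 17 they were 44.3, 42.5 and 40.4 CPM in induced caps, against 14.0, 13.4 and 8.92 CPM in controls. Every induced library was above every control library at both later stages. The level was 11.7-fold higher in induced caps at stage 13 (8.65 ± 3.05 against 0.729 ± 0.435 CPM, SD, n = 3 each, log2 fold change 3.55 ± 0.68 SE, edgeR adjusted p = 0.000561). At stage 17 it was 3.5-fold higher (42.4 ± 1.97 against 12.1 ± 2.78 CPM, log2 fold change 1.81 ± 0.57, edgeR adjusted p = 0.0166). Without control library c of stage 17 this last difference was 1.63 on the log2 scale and no longer passed (p adjusted to 0.068). Mesoderm and muscle markers summed to 8.70, 114 and 12 CPM in induced libraries a, b and c of stage 13, all above the controls. Library b was the highest of them in ednra.S too. At stage 17 induced library c had the highest sum, 49.8 CPM, and the lowest ednra.S of the induced libraries, 40.4 CPM. The part of such cells in the ednra.S values was not tested. These are bulk samples, in which fewer cells of a type and less RNA per cell cannot be told apart.

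Time changed ednra.S in both series. In induced caps it was 17-fold higher at stage 13 than at stage 9 (edgeR adjusted p = 5.4e-05) and 4.90-fold higher at stage 17 than at stage 13 (adjusted p = 0.00526). In control caps stage 13 did not differ from stage 9 beyond the spread, and stage 17 was 16.4-fold higher than stage 13 (adjusted p = 0.000261). Control caps of stage 17, labelled epidermis, thus held 12.1 ± 2.78 CPM of the receptor, and induced caps of stage 13 held 8.65 ± 3.05 CPM. Those groups share no library, and their ranges overlap (8.92 to 14.0 and 5.30 to 11.3 CPM).

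The other copy, ednra.L, went the opposite way. Its counts were 2, 2 and 8 in induced libraries a, b and c of stage 17, against 27, 19 and 11 in the controls. All 3 induced libraries were below all 3 controls. It was 5.67-fold lower in induced caps (0.191 ± 0.139 against 1.14 ± 0.478 CPM, log2 fold change −2.50 ± 0.83, edgeR adjusted p = 0.0219). That call rests on few reads and was lost without control library a (adjusted p = 0.101) or b (0.0555) and without induced library a (0.0863) or b (0.106) of stage 17. At stage 13 it had 2 counts over the induced caps and 4 over the controls, and at stage 9 it had 16 and 9. In control caps ednra.L was 11.9-fold higher at stage 17 than at stage 13 (edgeR adjusted p = 0.00675), as its S partner was in the same libraries. In induced caps the copy had 12 counts at stage 17 and 2 at stage 13, a ratio of 5.04 with a 95% counting interval of 1.12 to 46.4, and did not pass (adjusted p = 0.13).

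**Figure D1:**
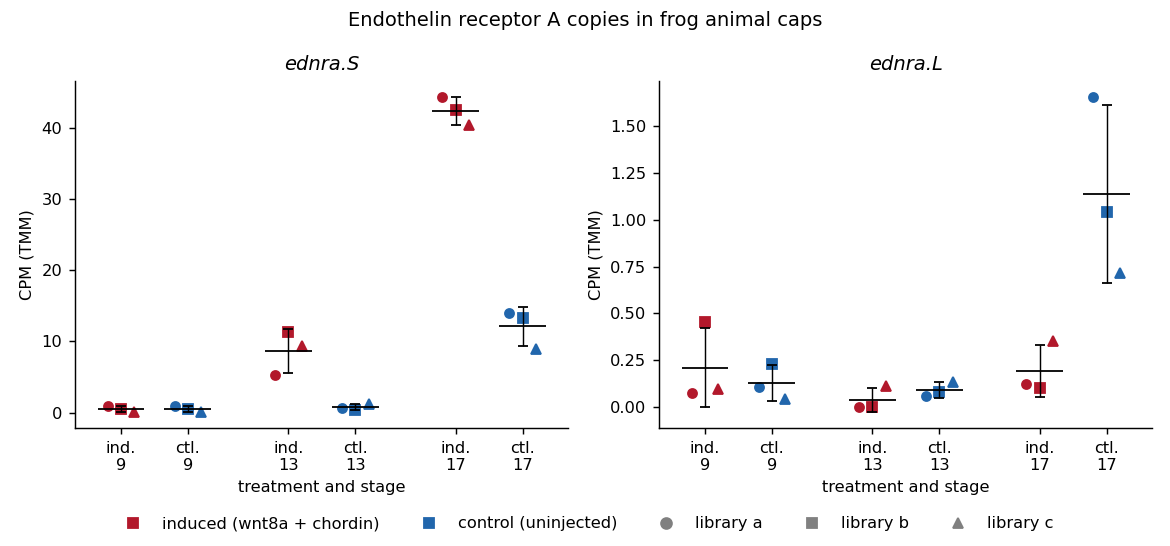
CPM (TMM-scaled) of ednra.S and ednra.L in each library of induced and control caps (ind. and ctl.) at stages 9, 13 and 17, with the mean as a horizontal line and the SD of 3 libraries as a bar. The S copy stands at 40.4 to 44.3 CPM in induced and 8.92 to 14.0 CPM in control caps of stage 17, whereas the L copy is lower in induced caps there, on a scale that ends below 2 CPM.

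The B-type receptors were nearly silent after the blastula. For ednrb.S, counts at stage 9 were 44, 15 and 26 in induced libraries a, b and c and 43, 25 and 22 in control libraries. At stage 13 they were 4, 0 and 3 in induced and 4, 1 and 3 in control caps, and at stage 17 they were 1, 1 and 0 in induced caps and 0 in every control. The drop after stage 9 appeared in both kinds of cap, and the groups overlapped at each stage. Stage 13 was 7.96-fold lower than stage 9 in induced caps (edgeR adjusted p = 0.00461) and 6.86-fold lower in control caps (adjusted p = 0.00663). In control caps the copy was then at least 2.96-fold lower at stage 17 than at stage 13, counted against a floor of 3 reads over the group, with an adjusted p of 0.0178 that became 0.0501 without control library a of stage 13. Induced and control caps did not differ beyond the spread at stage 9 or 13 (log2 fold changes −0.07 ± 0.68 and −0.28 ± 0.90), and at stage 17 neither group exceeded 3 reads.

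The partner copy ednrb.L had no count in any library. For ednrb2, which in birds is the receptor of migrating pigment cells, the L copy had 2 counts in all, both in induced caps of stage 17, and the S copy had 12. Of those 12, the induced library a of stage 9 held 5 and the control library a held 7, and no other library held any.

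Among the ligands, edn1.L was low in all caps of stage 9 and in all controls, and was high in induced caps of stage 17. At stage 9 the induced libraries a, b and c held 0.232, 0.0754 and 0.244 CPM, against 0.145, 0.464 and 0.177 CPM in controls. At stage 13 they held 0.524, 0.719 and 2.49 CPM, against 0.286, 0.394 and 0.407 CPM. At stage 17 they held 4.95, 7.55 and 9.48 CPM, against 0.123, 0 and 0.130 CPM in controls. The groups overlapped at stage 9 and were apart at both later stages, and library c was the highest of the induced ones at both. At stage 17 the counts were 82, 149 and 216 in induced caps, against 2, 0 and 2 in controls, which made edn1.L 83.5-fold higher in the fit (7.32 ± 2.27 against 0.0843 ± 0.0731 CPM, log2 fold change 6.38 ± 0.84, edgeR adjusted p = 1.79e-05).

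The earlier rise of edn1.L was less sure. At stage 13 the copy stood at 1.24 ± 1.08 CPM in induced caps and 0.362 ± 0.0665 CPM in controls (log2 fold change 1.78 ± 0.70, edgeR adjusted p = 0.0529), just over the threshold. With the library letter as a block it passed (log2 fold change 1.63, adjusted p = 0.0412), as it did with library totals (0.0476), with DESeq2 (0.0338) and without 1 of 5 libraries (induced a or b of stage 13, induced b or control b of stage 9, or control b of stage 17, with adjusted p of 0.0287, 0.0432, 0.0463, 0.043 and 0.0368). Within induced caps it was 6.69-fold higher at stage 13 than at stage 9 (adjusted p = 0.00285) and 5.84-fold higher at stage 17 than at stage 13 (adjusted p = 0.00539). The induction effect itself grew from stage 13 to 17, by 4.61 ± 1.08 on the log2 scale (interaction, edgeR adjusted p = 0.0156). That term also holds a fall in control caps, from 16 reads at stage 13 to 4 at stage 17. The fall did not pass by itself (log2 fold change −2.06 ± 0.88, edgeR adjusted p = 0.0747).

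Endothelium is a known source of edn1, and some endothelial and blood markers differed between the groups. Over all genes tested, 22.2% were higher and 22.8% lower in induced caps of stage 17. Of the 13 such copies tested, 4 were higher in induced caps of stage 17 (flt1.L, etv2.S, spib.L and aplnr.L) and 3 were lower (tek.S, gata1.L and pecam1.L). The counts were 134 in induced and 5 in control caps for flt1.L, 111 and 0 for etv2.S, 122 and 3 for spib.L and 392 and 80 for aplnr.L. They were 403 in induced and 1230 in control caps for tek.S, 6 and 35 for gata1.L and 8 and 34 for pecam1.L. The summed level of all 29 listed copies was 23.6 to 29.1 CPM in induced and 24.2 to 45.5 CPM in control caps, of which tek.S made up 6.81 CPM in induced and 24.1 CPM in control caps in the mean. Leaving out tek.S was a choice made after the values were seen. Without it, the group means of the other 28 copies summed to 19.4 CPM in induced and 8.80 CPM in control caps. Of those sums, aplnr.L and aplnr.S held 6.91 and 2.20 CPM in induced and 1.59 and 0.687 CPM in control caps. At stage 9 the means of the other 28 copies summed to 30.7 CPM in induced and 19.7 CPM in control caps. There edn1.L averaged 0.184 and 0.262 CPM. Of the stage 9 sums, aplnr.L and aplnr.S held 7.99 and 9.57 CPM in induced and 3.25 and 3.59 CPM in control caps. Of the 29 copies, 13 had 3 or fewer reads over the induced caps of stage 17 and 15 over the controls. Both copies of the endothelial cadherin cdh5 were at 0 in both groups of stage 17. At stage 13, 7 tested copies were higher and 2 lower, beside 18.9% and 21.4% of all genes. There cdh5.L had 70 counts in induced and 5 in control caps. The sum was 17.3 to 31.3 CPM in induced and 17.8 to 25.9 CPM in control caps of stage 13. Without tek.S it was 17 CPM in induced and 7.43 CPM in control caps in the mean. Of this, aplnr.L and aplnr.S held 6.66 and 1.79 CPM in induced and 0.672 and 0.335 CPM in control caps. Mesoderm and muscle markers stood at 8.21, 9.01 and 49.8 CPM in induced libraries a, b and c of stage 17. Those libraries held 4.95, 7.55 and 9.48 CPM of edn1.L, and all 3 were above the controls in both. At stage 13 the mesoderm and muscle sum was highest in induced library b, 114 CPM, which held 0.719 CPM of edn1.L. Induced library c of stage 13, with a sum of 12 CPM, held 2.49 CPM of edn1.L. The part of endothelial, blood or mesoderm cells in the edn1.L values was not tested.

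The S copy of edn1 had 51 counts over all libraries and was not tested. It held 6, 2 and 7 counts in induced libraries of stage 17 and 2, 7 and 0 in controls, which overlap.

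The ligand edn3, the usual partner of the B-type receptor, was a blastula transcript that was low at stage 13 and was counted again at stage 17 in induced caps. Counts of edn3.S at stage 9 were 31, 27 and 24 in induced libraries and 41, 28 and 48 in controls. At stage 13 they were 3, 6 and 4 in induced caps, against 2, 0 and 0 in controls. At stage 17 they were 13, 24 and 39 in induced caps, and no control library had a read. Induced and control libraries did not overlap at either later stage. At stage 17 edn3.S was at least 21.4-fold higher in induced caps (1.24 ± 0.463 CPM against no count, edgeR adjusted p = 3.93e-05). At stage 13 the ratio was 5.88 with a 95% counting interval of 1.33 to 53.7 (edgeR adjusted p = 0.0305), and that call did not hold without control library b (0.0962) or c (0.0996) or induced library b (0.0941) of that stage, with DESeq2 (0.0648) and with no filter on low counts (0.0553). Stage 13 was 4.24-fold lower than stage 9 in induced caps (adjusted p = 0.00738) and 36.6-fold lower in control caps (95% counting interval 9.92 to 306, adjusted p = 4.06e-05). From stage 13 to stage 17 edn3.S rose 4.67-fold in induced caps (adjusted p = 0.0106).

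The L copy of edn3 was rarely counted after stage 9. At stage 9 it had 84, 0 and 7 counts in induced libraries a, b and c and 77, 11 and 10 in controls, so library a held most of its reads in both groups. At stage 13 it had none in induced caps and 3, 0 and 1 in controls, and at stage 17 it had 3, 0 and 2 in induced caps and none in controls. In induced caps it was at least 20.7-fold lower at stage 13 than at stage 9 (edgeR adjusted p = 0.0131), a call lost without induced library a of stage 9 (0.0921). In control caps the same step missed the threshold (adjusted p = 0.0557) and passed with the library letter as a block (log2 fold change −4.10, adjusted p = 0.00468).

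The copies of edn2, a ligand close to edn1 in mammals, were counted too rarely for the filter, with 36 reads of the L copy and 31 of the S copy in all. The symbol edn2.L was the only member without a match in RefSeq's X. laevis table. The 2 copies divided between the groups. At stage 17 edn2.L had 4, 14 and 9 counts in induced libraries and none in controls, which is at least 7.60-fold higher, and at stage 13 it had 3, 1 and 2 counts against none. The S copy had 1, 0 and 0 counts in induced caps of stage 17, against 4, 3 and 1 in controls, and none in induced caps of stage 13, against 3, 1 and 3 in controls. Fitted with no filter on low counts, over 39284 genes, edn2.L passed at stage 17 (edgeR adjusted p = 0.00618) and missed at stage 13 (0.0871), and edn2.S passed at stage 13 (0.0358, at least 2.58-fold lower) and missed at stage 17 (0.117).

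**Figure D2:**
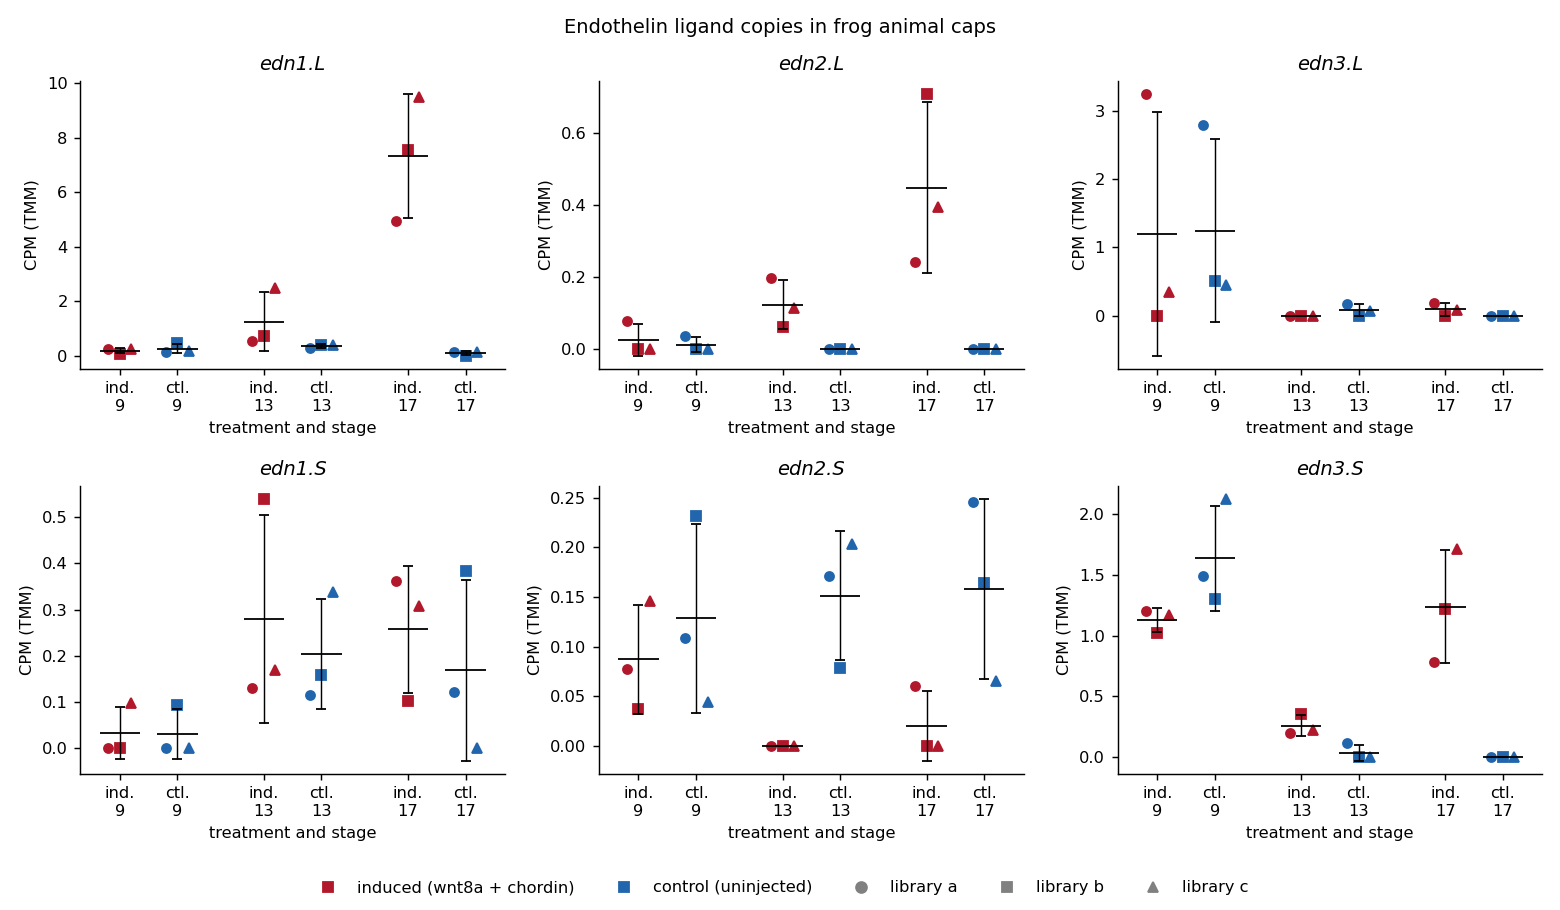
CPM (TMM-scaled) of the 6 ligand copies in each library of induced and control caps (ind. and ctl.) at stages 9, 13 and 17, with mean and SD of 3 libraries. At stage 17, edn1.L, edn2.L and edn3.S stand at 4.95 to 9.48, 0.242 to 0.709 and 0.785 to 1.71 CPM in induced caps and at 0 to 0.130 CPM in control caps.

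Both copies of ece1, the membrane protease that releases active endothelin from its precursor, had their highest group mean in induced caps of stage 13. The S copy held 115, 110 and 100 CPM in the induced libraries of that stage, against 36.0, 37.4 and 32.0 CPM in controls, which do not overlap. It was 3.09-fold higher in induced caps (108 ± 7.56 against 35.1 ± 2.78 CPM, log2 fold change 1.63 ± 0.26, edgeR adjusted p = 0.000136). The L copy held 147, 92.4 and 141 CPM in induced caps, against 71.7, 55.1 and 64.6 CPM in controls, again with no overlap. It was higher by 0.99 ± 0.32 on the log2 scale (127 ± 30.1 against 63.8 ± 8.34 CPM, edgeR adjusted p = 0.0192), and the call did not survive the loss of control library b (0.0788) or c (0.052) or of induced library a (0.068) or c (0.0509). Those fits had no block. With the library letter as a block and all libraries kept, ece1.L also passed (log2 fold change 0.97, edgeR adjusted p = 0.00051).

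At the stages on either side neither copy of ece1 passed. At stage 9 ece1.S averaged 32.2 ± 11.2 CPM in induced and 40.3 ± 11.8 CPM in control caps, and at stage 17 it averaged 62.8 ± 16.3 and 46.9 ± 5.98 CPM, with edgeR adjusted p of 1 and 0.198. For ece1.L the values were 57.1 ± 27.5 against 70.7 ± 25.3 CPM at stage 9, and 94.4 ± 6.68 against 107 ± 21.9 CPM at stage 17 (adjusted p of 1 and 0.686). At stage 9 the 3 letters ranked alike in both groups for ece1.L, with a highest and b lowest, and both copies were lower in the induced library of each letter than in its control. With the block in a fit of these groups alone, ece1.L passed as lower at stage 9 (−0.39 on the log2 scale, adjusted p = 0.0466), and with the block in the fit of all libraries it was not called (−0.34, adjusted p = 1). The induction effect was larger at stage 13 than at stage 9 by 1.95 ± 0.37 on the log2 scale for ece1.S (interaction, edgeR adjusted p = 0.0012) and by 1.30 ± 0.44 for ece1.L (0.0465, lost in 16 of 25 alternatives). In induced caps ece1.S was 1.73-fold lower at stage 17 than at stage 13 (adjusted p = 0.0228), which was lost with library totals (0.104) and without induced library a or b of stage 13 or a or c of stage 17 (up to 0.1). For ece1.L the same step in induced caps did not pass (log2 fold change −0.43 ± 0.31, edgeR adjusted p = 0.301). Its induced libraries of stage 13 (92.4 to 147 CPM) overlapped the controls of stage 17 (82.8 to 126 CPM). In control caps ece1.L at stage 17 against stage 13 missed the threshold (0.0741). It passed with the library letter as a block (log2 fold change 0.72, adjusted p = 0.00459). From stage 13 to 17 the induction effect changed by −1.20 ± 0.36 for ece1.S (adjusted p = 0.0534), and with the library letter as a block by −1.18 (0.0459) for ece1.S and −1.11 (0.0116) for ece1.L.

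The related protease ece2, which works at acid pH and in mammals is most abundant in neural tissue, was nearly absent from the blastula. At stage 9 ece2.L had 1, 2 and 3 counts in induced libraries and 1, 2 and 0 in controls. It held 1.24, 1.92 and 2.72 CPM in induced caps of stage 13, against 0.972, 1.5 and 1.83 CPM in controls, and 7.73, 9.32 and 15.1 CPM in induced caps of stage 17, against 4.05, 7.23 and 7.62 CPM in controls. It grew in both kinds of cap. From stage 9 to 13 it rose 21.9-fold in induced caps (adjusted p = 5.92e-06) and in control caps by a ratio of 33.5 with a 95% counting interval of 11 to 167 (adjusted p = 6.03e-06). From stage 13 to 17 it rose 5.45-fold in induced (adjusted p = 0.00067) and 4.39-fold in control caps (0.00208). At stage 17 all 3 induced libraries were above all 3 controls, the difference missed the threshold (log2 fold change 0.77 ± 0.44, edgeR adjusted p = 0.172), and it passed with the library letter as a block (log2 fold change 0.76, adjusted p = 0.0351).

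The S copy of ece2 followed another course. Its counts at stage 13 were 19, 35 and 34 in induced libraries, against 1, 6 and 2 in controls. It was 8.06-fold higher in induced caps there (1.75 ± 0.451 against 0.222 ± 0.221 CPM, log2 fold change 3.01 ± 0.86, edgeR adjusted p = 0.0106), a call lost without control library a (0.0558) or c (0.0537) of stage 13. At stage 17 its counts were 3, 28 and 16 in induced libraries, against 8, 4 and 4 in controls. Induced library a was then below control library a, the groups overlapped, and the difference did not pass (log2 fold change 1.24 ± 0.81, adjusted p = 0.23).

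**Figure D3:**
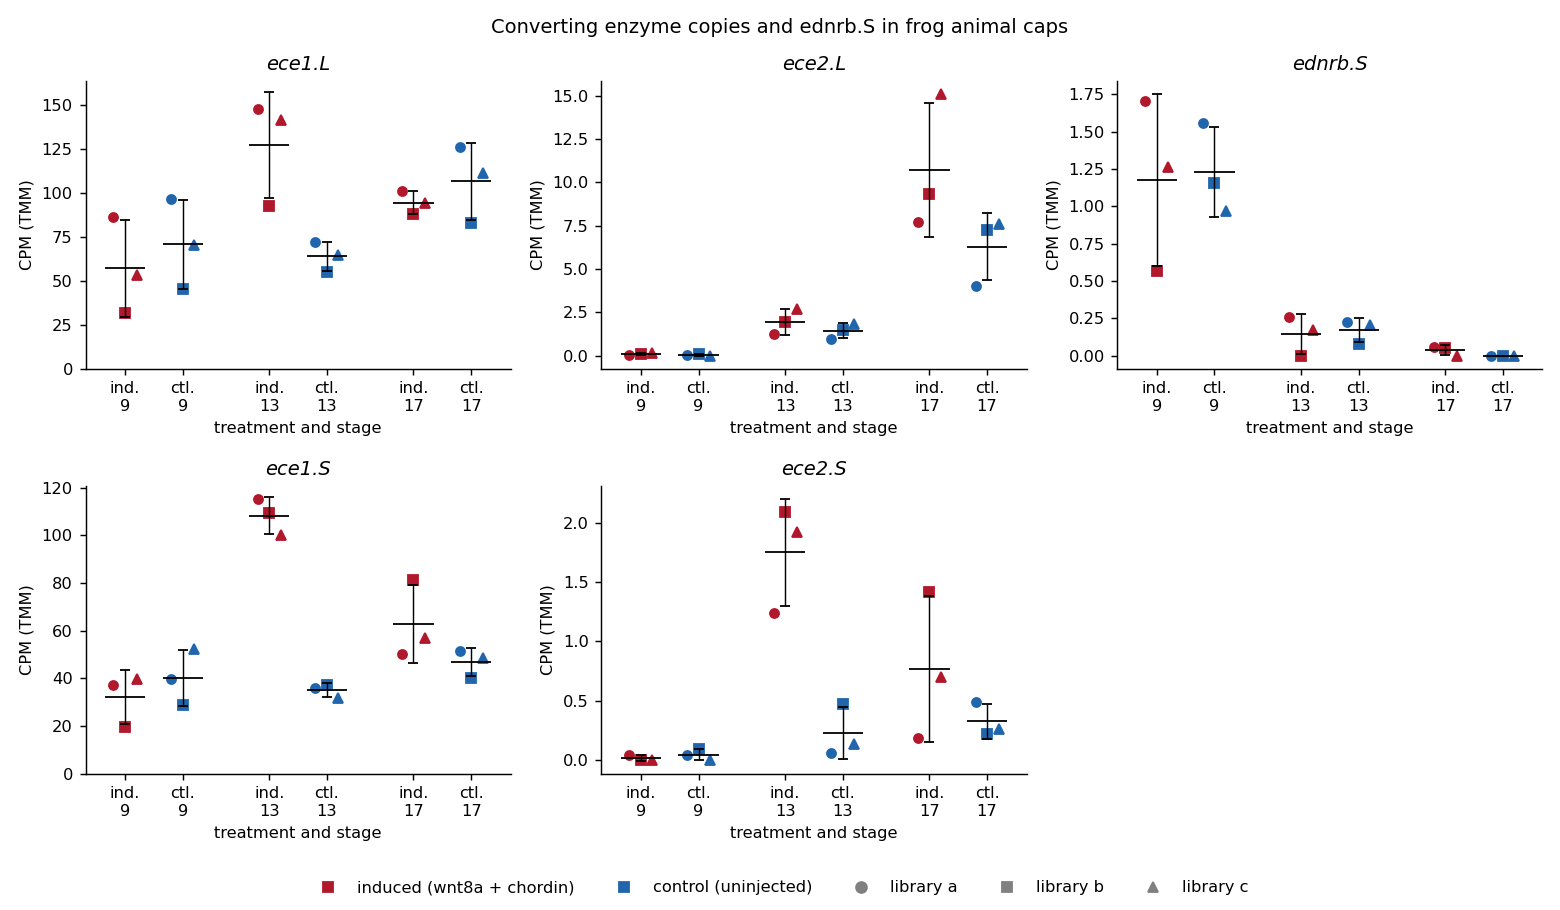
CPM (TMM-scaled) of the converting enzyme copies and of ednrb.S in each library of induced and control caps (ind. and ctl.) at stages 9, 13 and 17, with mean and SD of 3 libraries. At stage 13, ece1.S stands at 100 to 115 CPM in induced and 32.0 to 37.4 CPM in control caps, and ednrb.S falls in both kinds of cap after stage 9.

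Of the 10 copies tested, none passed at stage 9 for induced against control caps, where 0.412% of all genes tested did (0.347% higher and 0.0653% lower). None had an unadjusted p under 0.05 either, and DESeq2 called 0. At stage 13, 5 copies were higher in induced caps and none lower, and 40.3% of all genes passed (18.9% higher and 21.4% lower). At stage 17, 3 were higher and 1 lower, and 45% of all genes passed (22.2% higher and 22.8% lower). The median log2 fold change of the 10 was −0.19, 1.31 and 1.53 at stages 9, 13 and 17, against 0.04, 0.01 and 0.00 over all genes, and 0.63 at stage 17 with genes that lack counts in a group set at their bound. Taken in either direction, the shares called among the members at stages 13 and 17 (50% and 40%) are thus close to those among all genes. By direction they are less alike at stage 13, where all 5 calls were higher, and no difference in shares was tested. Copies reach the test only where some group holds enough reads.

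Across stages, induced caps of stage 13 against stage 9 had 6 copies higher and 3 lower, where 70.6% of all genes passed (35% higher and 35.5% lower), and stage 17 against stage 13 had 4 higher and 1 lower, where 39.7% passed (21% higher and 18.7% lower). In control caps the first step had 1 copy higher and 2 lower (71.3% of all genes, 36.2% higher and 35.1% lower) and the second had 3 higher and 1 lower (39.1%, 20.1% higher and 19% lower). The change of the induction effect from stage 9 to 13 passed for 4 copies, ednra.S, ece1.S, ece1.L and edn3.S, all upward, where 21.6% of all genes passed (8.88% upward and 12.7% downward). With any 1 library left out, 1 to 3 copies passed, and the edn3.S and ece1.L terms were lost in 21 and 16 of 25 alternatives. From stage 13 to 17 it passed for edn1.L alone, where 8.1% passed (4.03% upward and 4.07% downward). These comparisons share libraries and are not independent of each other.

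**Figure D4:**
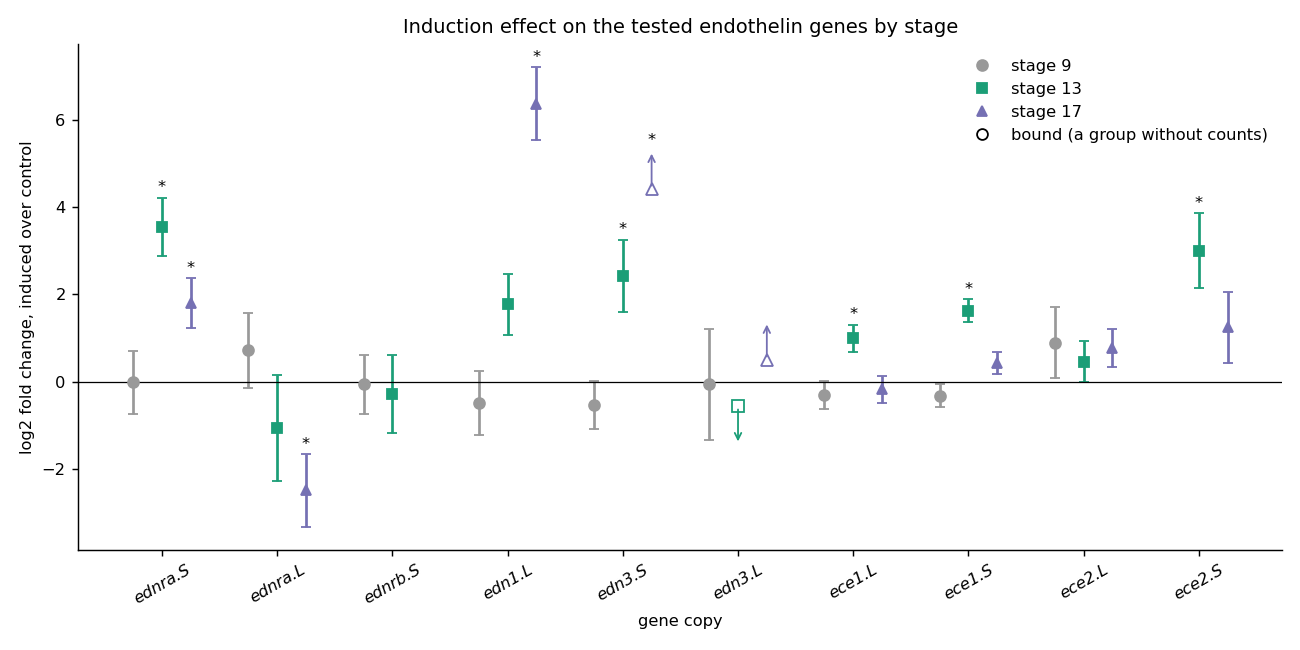
Log2 fold change of induced over control caps for the 10 tested copies at stages 9, 13 and 17 with its SE; asterisks mark an edgeR adjusted p under 0.05, open symbols with arrows are bounds where a group had no count, and nothing is drawn where both groups had 3 reads or fewer. At stage 13 the called copies are ednra.S, edn3.S, ece1.L, ece1.S and ece2.S, and at stage 17 they are ednra.S, edn1.L and edn3.S above 0 and ednra.L below it.

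Between induced and control caps, the share of each copy differed for ednra and edn1 at stage 17 and for ece2 at stage 13. Of these calls, only that of ednra held with each library of its stage left out in turn. The share of reads on the L copy was compared with a test of the L to S ratio over 6888 gene pairs, a test that was added after the counts had been seen. Shares of reads depend on the length and sequence of the copies and are no share of transcripts, and reads in a stretch that both copies hold alike could not be placed. For ednra, the L copy took 0.272, 0.238 and 0.861% of reads in induced libraries a, b and c of stage 17, against 10.5, 7.22 and 7.43% in controls. No induced library reached any control. Pooled, that was 12 reads of the L and 2495 of the S copy in induced caps (an L share of 0.479%, exact 95% interval 0.248 to 0.835), against 57 and 610 in controls (8.55%, 6.54 to 10.9). The log2 ratio of L to S was lower in induced caps by 4.26 ± 0.69 (edgeR adjusted p = 0.000264), where 26.4% of all pairs passed. At stage 13 the shares were 0.458% in induced and 10.8% in control caps, with 2 and 4 L reads, and the ratio missed the threshold (adjusted p = 0.053). It passed without induced library c of stage 13 (0.0325). In induced caps the ratio was lower at stage 13 than at stage 9 by 6.32 ± 1.12 (adjusted p = 0.000173), where 52.3% of pairs passed. That step rests on few L reads. At stage 9 libraries a, b and c held 2, 12 and 2, beside 24, 13 and 1 S reads. It was not refitted with a library left out or in another way.

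The opposite held for edn1. Its L copy took 93.2, 98.7 and 96.9% of reads in induced libraries of stage 17, against 50, 0 and 100% in controls, where control c lay above every induced library. The control libraries held 13 reads in all, 4 of them on the L copy, a pooled share of 30.8% that ran from 18.2 to 66.7% with 1 library left out. The fit gave a difference of 5.84 ± 1.45 in log2 L to S (edgeR adjusted p = 0.00713) that was lost without control library b (0.248), which held 7 of the 9 S reads. For ece2, the L share was 50, 47.8 and 58.5% in induced libraries of stage 13, against 94.4, 76.0 and 93.1% in controls, and then 97.7, 86.8 and 95.6% at stage 17, against 89.2, 97.1 and 96.7% in controls. The stage 13 difference in log2 L to S was −2.63 ± 0.81 (edgeR adjusted p = 0.0304), where 21.5% of all pairs passed. It was lost without control library a (0.0899) or c (0.126) or induced library a (0.061) or b (0.0826) of stage 13. In induced caps the ratio was higher at stage 17 than at stage 13 by 3.73 ± 0.64 (adjusted p = 0.000714), where 24.1% of pairs passed. This step too was not refitted with a library left out or in another way.

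The ece1 copies stayed nearer to each other. The L copy took 53.4 ± 6.75% of reads in induced and 64.3 ± 4.12% in control caps of stage 13, and 60.4 ± 7.62 and 69.2 ± 1.79% at stage 17. Neither difference passed (log2 L to S −0.66 ± 0.28 and −0.56 ± 0.28, adjusted p = 0.109 and 0.16), and both passed with the library letter as a block (−0.65 and −0.56, adjusted p = 0.022 and 0.0402). Library a had a higher L share than library b in each of these 4 groups. The background share of pairs that passed was 53.3% and 23.1% for the steps to stages 13 and 17 in control caps, and 9.15% and 4.79% for the changes of the induction effect from stage 9 to 13 and from 13 to 17, in which none of the ednra, edn1, edn3, ece1 and ece2 pairs passed.

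**Figure D5:**
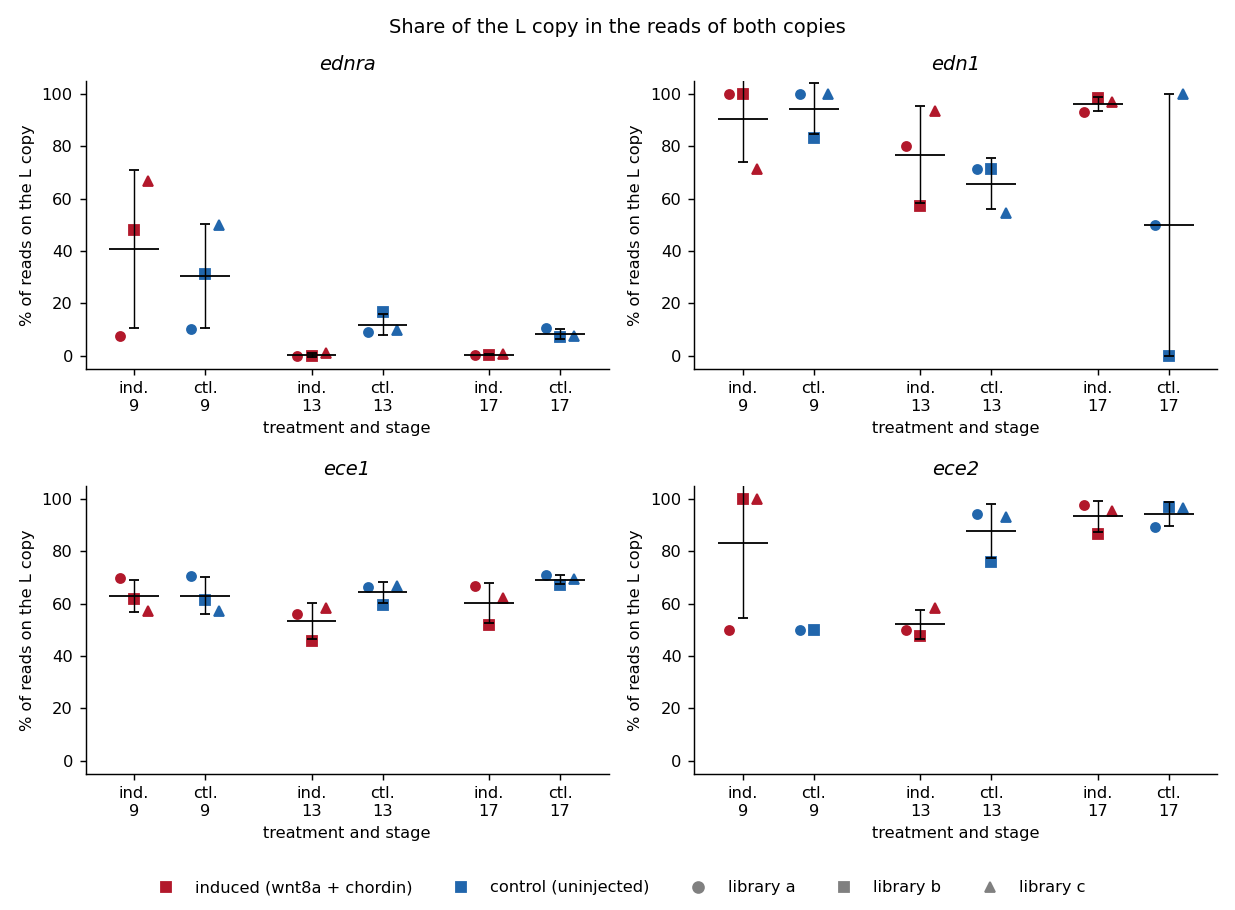
Percentage of the reads of both copies that fell on the L copy of ednra, edn1, ece1 and ece2 in each library of induced and control caps (ind. and ctl.) at stages 9, 13 and 17, with mean and SD of 3 libraries where each had reads. The ednra share is under 1.2% in every induced library of stages 13 and 17 and 7.22 to 16.7% in the controls. At stage 9, points for ednra, edn1 and ece2 rest on few reads. So do points for ednra and edn1 in controls of stage 13, and for edn1 in controls of stage 17.

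The proteases that mature or break down endothelins and related peptides moved both ways in induced caps. Of 8 copies tested, 2 were higher and 5 lower at stage 13, and 1 was higher and 4 lower at stage 17. The shares over all genes were 18.9% higher and 21.4% lower at stage 13, and 22.2% and 22.8% at stage 17. The median log2 fold changes of these 8 copies were −1.27 and −0.73, beside 0.01 and 0.00 over all genes. The furin protease gene furin.L held 111 ± 41.2 CPM in induced and 385 ± 86.8 CPM in control caps of stage 17 (log2 fold change −1.80 ± 0.30, edgeR adjusted p = 0.00014). Its relatives pcsk6.L and pcsk7.L were lower by −3.41 ± 0.56 and −1.05 ± 0.19 on that scale, with adjusted p of 0.000142 and 0.000373. The related convertase pcsk5.L was the copy that rose, to 19.8 ± 4.32 CPM in induced caps against 4.07 ± 0.494 CPM in controls (log2 fold change 2.28 ± 0.21, adjusted p = 5.69e-07).

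Genes of the pathway inside the cell moved both ways. Of 27 copies tested for G proteins, phospholipase C and their partners, 6 were higher and 8 lower at stage 13, and 5 higher and 10 lower at stage 17, where 40.3% and 45% of all genes passed in either direction. The calcium channel gene itpr1.L, a receptor for inositol trisphosphate, held 32.7 ± 7.02 CPM in induced and 1.53 ± 0.484 CPM in control caps of stage 17 (log2 fold change 4.42 ± 0.33, edgeR adjusted p = 7e-08), and itpr1.S rose by 2.65 ± 0.37 (2.92e-05). The inhibitory G protein gene gnai1.S rose by 0.84 ± 0.14 (0.000148). The phospholipase gene plcb2.L had no count in induced caps and 2648 counts in controls of stage 17, at least 1045-fold lower (edgeR adjusted p = 8.71e-06). Arrestin arrb2.L and protein kinase C prkca.L fell by 1.88 and 2.09 on the log2 scale (adjusted p = 2.33e-05 and 0.00013). The median over the 27 was 0.12 at stage 13 and −0.15 at stage 17.

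Genes that lie downstream of edn1 and ednra in the arches of other vertebrates were also split. Of 17 copies tested, 6 were higher and 4 lower at stage 13, and 6 higher and 4 lower at stage 17. Among all genes, 18.9% were higher and 21.4% lower at stage 13, and 22.2% and 22.8% at stage 17. At stage 17 the factor mef2c.S held 34.8 ± 6.21 CPM in induced and 0.163 ± 0.0466 CPM in control caps (log2 fold change 7.70 ± 0.77, edgeR adjusted p = 1.19e-06). The homeobox genes dlx6.S and dlx6.L rose by 3.08 ± 0.38 and 3.80 ± 0.57 (adjusted p = 9.38e-06 and 5.85e-05). The jaw and heart factor hand2 was lower in both copies, with 22 counts over induced and 1407 over control caps for hand2.S (log2 fold change −6.16 ± 0.57, adjusted p = 5.93e-07) and 2 against 889 for hand2.L. The homeobox gene dlx3.S, also an epidermal gene, was lower by −2.14 ± 0.35 (0.000135). The median log2 fold change of the list was 1.46 at stage 13 and 0.40 at stage 17, or 0.00 at stage 17 with bounds in place of fitted values. At stage 9, 1 of the 17 copies was higher in induced caps (gsc.S) and 3 were lower (dlx3.S, dlx5.S and msx1.L). The shares over all genes at that stage were 0.347% higher and 0.0653% lower, and no difference from them was tested.

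Genes of the pigment and enteric lineages, which depend on edn3 and the B receptor, moved both ways. Their counts stand beside the 18.9% higher and 21.4% lower of all genes at stage 13 and the 22.2% and 22.8% at stage 17, and no difference from these shares was tested. Of 13 pigment copies tested, 2 were higher and 4 lower at stage 13, and 2 higher and 5 lower at stage 17. The pigment regulator mitf.S had 631 counts in induced caps of stage 17 and none in controls, at least 178-fold higher (edgeR adjusted p = 0.000561), and pmel.S rose by 1.31 ± 0.27 (edgeR adjusted p = 0.00102). The receptor gene kit.L fell by 5.64 and kit.S by 3.70 on the log2 scale (adjusted p = 8.62e-09 and 8.38e-07), and the gene of their ligand, kitlg.S, fell by 3.71 (0.00483). The median over the 13 was −0.07 at stage 13 and −0.80 at stage 17. Of 8 enteric copies tested, 1 was higher and 5 lower at stage 13, and 2 higher and 5 lower at stage 17. The ligand gene gdnf.L had 357 counts in induced caps of stage 17 and none in controls, at least 101-fold higher (edgeR adjusted p = 0.000192). The lower ones included both hand2 copies above and phox2a.S (−3.94 ± 0.64, adjusted p = 0.000126). The median over the 8 was −1.84 at stage 13 and −3.54 at stage 17.

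The genes whose levels ran most like those of the members over the 18 libraries were found by Pearson's correlation of log2(CPM + 1), given as a description, since libraries of a group and of a stage are not independent. For edn1.L they included afap1l1.S (r = 0.983), homer3.L (0.982), mef2c.S (0.975) and gdnf.L (0.974), among 15296 genes. In induced caps of stage 17 these averaged 30.1, 9.84, 34.8 and 5.96 CPM. Controls of that stage averaged 0.0399, 0.121, 0.163 and 0 CPM for the same genes. For ednra.S they were atox1.L (0.970), dse.L (0.970), serpinh1.S (0.966), prtg.S (0.964) and rad9a.L (0.963). Among these, serpinh1.S, which codes for a collagen chaperone, averaged 79.4 CPM in induced and 39.4 CPM in control caps of stage 17, so it too was well above the blastula in both. For ece1.S they were col18a1.S (0.912), kcp.L (0.905), rnd3.S (0.904), irx2.L (0.902) and scube2.L (0.884). All of these, like ece1.S, had their highest group mean in induced caps of stage 13, for example col18a1.S with 139 CPM there, against 7.17 CPM in controls. For ece1.L they were tjap1.L (0.919), bahcc1.S (0.884), scrib.L (0.879), mrtfb.S (0.878) and pan2.L (0.878).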

How the data were processed

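Poly(A) RNA of frog animal caps was sequenced with a directional kit, per the labels' protocols. The submitters' processing notes name fastp 0.23.2 for trimming, STAR 2.6.0 as the aligner and HTSeq 1.99.2 as the counter. Not given in the sources used here: build, annotation and strandedness of counting. The values deposited by the authors are raw read counts per gene, 1 column per library. Summary lines that name no gene were set aside: 10.2 to 12.8% lay outside genes, 0.198 to 0.512% were ambiguous and 10.3 to 12.2% aligned to several places. Since reads with several places were not counted, values of near-identical copies are uncertain. Lamprey samples were not used. Of the 16 members, 15 matched a symbol in RefSeq's X. laevis table, and edn2.L did not.

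The counts were scaled by TMM (factors 0.785 to 1.40), filtered with filterByExpr by group (minimum count 10, total 15) and fitted in edgeR 4.0.16 (R 4.3.3, quasi-likelihood, robust, two-sided), all 18 libraries together. SEs come from the log2 fold change divided by the root of F. Against a group with no count, a fold is a bound with a floor of 3 counts over the group; with 1 to 3 counts the ratio has a 95% counting interval. Shares have exact Clopper-Pearson intervals. Intervals and floors cover counting error only. L to S ratios were fitted in edgeR with paired columns. The scripts were tested on simulated data, with changes placed only in genes and pairs of higher counts. Changes in copies of few reads were not simulated. The variance between libraries of a group was 18.1 to 62.1 times that of counting error (chi-square per degree of freedom, 18 pairs). It was taken over all genes with at least 10 reads in a pair, and not over the members alone. The labels name no separate clutches, so p-values cover only how far these samples vary, possibly for technical reasons.

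Column letters are in no label. Deviations from group means of same-letter libraries correlated in 45 of 45 pairs (r = 0.179 to 0.828, all above 0.1), and each library correlated best with its own letter, so the letters were taken to pair libraries and a fit with the letter as a block was run beside. Scaling by library totals in place of TMM shifted the log2 median over all genes by −0.06, 0.08 and 0.23 at stages 9, 13 and 17 (induced against control), by −0.64 and 0.20 for the steps to stages 13 and 17 in induced caps, by −0.78 and 0.05 in control caps, and by 0.14 and 0.15 for the interactions.

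Alternatives were library totals, DESeq2 size factors, no filter, the groups compared alone, the block, DESeq2 1.42.0 and each library left out. The members and 14 gene lists were chosen with earlier results of these data known. Named were all members, the 5 genes of highest correlation with each called member that reached 5 CPM, among genes that reached 5 CPM, and of a list at most 3 copies of lowest adjusted p at stage 17 in each direction, for the lists of the pathway and its lineages. Some genes that this rule names are not reported here. The markers cdh5, flt1.L, etv2.S, spib.L, aplnr.L, aplnr.S, tek.S, gata1.L and pecam1.L, and gsc.S, dlx5.S and msx1.L were named after their values were seen. The lists of multiciliated cells, ionocytes, goblet and secretory cells, neural plate and placodes served to describe the caps.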

Additional observations from a re-analysis of the deposited data

Results flagged for a closer look

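The effect of induction differed between stages for 5 of the 10 gene copies tested, as an interaction in edgeR's quasi-likelihood fit. Over all genes tested, 21.6% passed for the change from stage 9 to 13 and 8.1% for that from stage 13 to 17. No difference from these shares was tested. From stage 9 to 13 it grew on the log2 scale by 3.57 for ednra.S (adjusted p = 0.0158), 1.95 for ece1.S (0.0012), 2.97 for edn3.S (0.0472) and 1.30 for ece1.L (0.0465). From stage 13 to 17 it grew by 4.61 for edn1.L (0.0156), a term that also holds a fall in control caps (log2 fold change −2.06, adjusted p = 0.0747). The edn3.S term lost its call under 21 of 25 alternatives and the ece1.L term under 16 of 25, with adjusted p up to 0.112 and 0.125. The ednra.S term lost it with the groups compared alone and without control library a of stage 9 (up to 0.106). Groups of 3 libraries were not screened for outlying samples.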

How the results depend on the processing

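Of 2191 recomputed values for single copies, 2082 kept their side of the threshold, 63 lost and 46 gained a call. No value with a call in either fit turned round. A change of sign with no call in either fit was not counted. With the replicate block in the groups compared alone, 1 copy passed at stage 9 (ece1.L, lower, adjusted p = 0.0466), and calls over all genes there were 629, against 101 in the fit of all libraries and 10 without the block. With library totals, 6 copies passed in control caps from stage 9 to 13. Calls over all genes there were 18272, against 17477 in the main fit (TMM, filtered, all libraries). From stage 9 to 13, the change of the induction effect passed for 2 copies with no filter and 1 with the groups compared alone. Over all genes, 4462 and 4191 passed in these fits, against 5283 in the main fit. From stage 13 to 17 the change passed for 2 copies with DESeq2 size factors and 2 with DESeq2. It passed for 3 with the replicate block, 3 with the groups compared alone and 3 with both. In that order, 1924, 2850, 2934, 2381 and 3926 of all genes passed, against 1984 in the main fit. With any 1 library left out, the counts of copies for these changes ran from 1 to 3 and from 1 to 2. Those of induced against control caps at stage 13 ran from 2 (without control c) to 6, with 3 without control b. Over all genes, 8573 passed without control c and 8067 without control b, against 9877 in the main fit. Leaving out 1 library at a time moved the log2 L to S difference from −7.08 to −3.88 for ednra at stage 13, from −3.62 to −2.23 for ece2 at stage 13 and from 3.88 to 6.81 for edn1 at stage 17. With the replicate block, the ece1 ratio passed at stages 13 and 17 (−0.65 and −0.56); other calls the block changed stand beside their results. The causes were not tested. Copies near or below a single read per library, such as edn2.S and ednrb2.L, are limited by depth.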
